A study of Mus musculus with 6 samples.

Results

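The genes described here carry cells through the uptake of cholesterol in low density lipoprotein (LDL) and its sensing by the sterol regulatory element binding proteins (SREBPs). They are Mylip, Lipa, Npc1, Npc2, Scap, Insig1, Insig2, Srebf1 and Srebf2, 9 genes taken by symbol from 21851 in all, and each has 1 row in every library. Wild-type mice were kept for 3 months on either of 2 diets, a control diet (CD) or one high in cholesterol (HCD), and RNA was sequenced from marrow cells sorted as LT-HSCs, the long-term stem cells that maintain the blood. Each diet has 3 libraries. All mice were background-matched and kept free of specific pathogens on autoclaved food and water. The labels name no age, sex or strain and do not say whether a library is 1 mouse or a pool. The p-values therefore cover the spread among these libraries, and that spread may be technical.

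Cells take up LDL through a surface receptor, digest its cholesteryl esters in the lysosome, and pass the freed cholesterol to other membranes. The SREBPs are transcription factors held in the membrane of the endoplasmic reticulum. When sterols are scarce the escort protein SCAP carries them to the Golgi, where proteases free the active part, which switches on genes of sterol synthesis and uptake. When sterols are plentiful the INSIG proteins hold SCAP back, and oxysterols activate the nuclear receptor LXR, whose targets include Mylip and Srebf1.

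Values are FPKM, fragments per kilobase of transcript scaled to the mapped total of the library. The FPKM summed to 427219 to 462370 per library, and the size of a lone read in low values put the depth at 18820000 to 19980000 reads or fragments. At that depth and the length of the longest annotated transcript, the members' values rest on about 180 reads (Insig2) to about 6390 (Srebf2) per library, which is an upper estimate where shorter transcripts dominate. On the first principal component, which held 54.2% of the variance, the diets parted, and HCD replicate 2 stood apart from HCD replicates 1 and 3 on the second (-14.7 against 7.81 and 10.1). The gate named by the submitters takes KIT and SCA1 positive cells without CD34 and CD135, yet Cd34 averaged 464 FPKM and Flt3 (CD135) 109, beside 120 for Kit and 64.2 for Ly6a (SCA1). The libraries are therefore called those labelled LT-HSC.

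Promoter letters from RefSeq (build GRCm38.p6) were at hand for 8 of the 9 genes. Shown are those of Mylip, the gene of the set that passed the test between diets, and of Srebf2 and Insig1, both known as targets of the SREBPs themselves. Each run is the 250 bases before the transcription start, and all 3 genes are on the plus strand. Capitals mark CCAAT boxes (CCAAT, or ATTGG on the other strand), the E-box CACGTG and the sterol regulatory element letters TCACCCCA.
Mylip, chr13:45389492-45389741: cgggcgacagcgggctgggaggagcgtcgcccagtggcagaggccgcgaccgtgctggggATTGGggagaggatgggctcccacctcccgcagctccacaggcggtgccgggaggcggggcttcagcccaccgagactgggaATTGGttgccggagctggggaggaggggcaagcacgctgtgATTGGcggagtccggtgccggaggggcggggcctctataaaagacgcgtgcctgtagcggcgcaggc
Srebf2, chr15:82147019-82147268: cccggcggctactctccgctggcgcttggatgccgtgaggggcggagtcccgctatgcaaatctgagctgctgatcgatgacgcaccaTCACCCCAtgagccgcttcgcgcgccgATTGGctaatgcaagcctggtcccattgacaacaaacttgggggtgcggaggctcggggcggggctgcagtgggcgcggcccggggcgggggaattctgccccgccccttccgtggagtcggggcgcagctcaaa
Insig1, chr5:28071162-28071411: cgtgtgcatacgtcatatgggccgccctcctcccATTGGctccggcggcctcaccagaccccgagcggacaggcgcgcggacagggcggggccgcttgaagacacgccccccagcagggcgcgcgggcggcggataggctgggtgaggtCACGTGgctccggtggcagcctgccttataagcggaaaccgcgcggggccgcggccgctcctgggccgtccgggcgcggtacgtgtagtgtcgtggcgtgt

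Mylip had 3 CCAAT boxes in its window of 300 bases (250 before the start and 50 after), all on the minus strand, at positions -190, -108 and -67 from the start. CCAAT occurs on either strand in 37.4% of the 32851 promoters of that length in the table. Srebf2 had the letters TCACCCCA at -162 and a CCAAT box at -135. These letters, a short form searched after the values were seen, occur in 1.56% of promoters, and among the 8 genes Srebf2 alone had them. The longer form TCACNCCAC, found in 1.24% of promoters, matched none of the 8. Insig1 had a CCAAT box at -216 and, at -101, the E-box CACGTG, which is found in 7.15% of promoters and overlaps the hexamer AGGTCA at -105. That hexamer, the unit of an LXR element, occurs in 16.3% of promoters, and the full element, this hexamer repeated after 4 free bases, in 0.0152% and in none of the 8 genes. A match describes the letters only.

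The comparison of HCD with CD asks whether transcripts of these genes differ in the sorted cells after the cholesterol-rich diet. All 9 had at least 1 FPKM in 3 or more libraries and entered the test, limma on log2(FPKM + 1) with Benjamini-Hochberg adjustment over the 10676 genes tested, with a threshold of 0.05. Mylip was higher under HCD. No other member passed, in either direction. That is 1 of 9 higher and 0 lower, beside 13.9% of all tested genes called in either direction, 6.28% higher and 7.66% lower, so the share of members called is near the background. At an unadjusted p under 0.05 there were 3 higher (Mylip, Lipa and Npc2) and 0 lower, where all tested genes had 12.6% higher and 18.3% lower. For 5 of the 9 genes the HCD and CD values were fully apart, against 37.7% of all tested genes, with HCD above CD in 3 (15.0% of all genes) and below it in 2 (22.7%). The members' median log2 change was 0.07, against -0.03 for all genes tested.

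**Figure D1:**
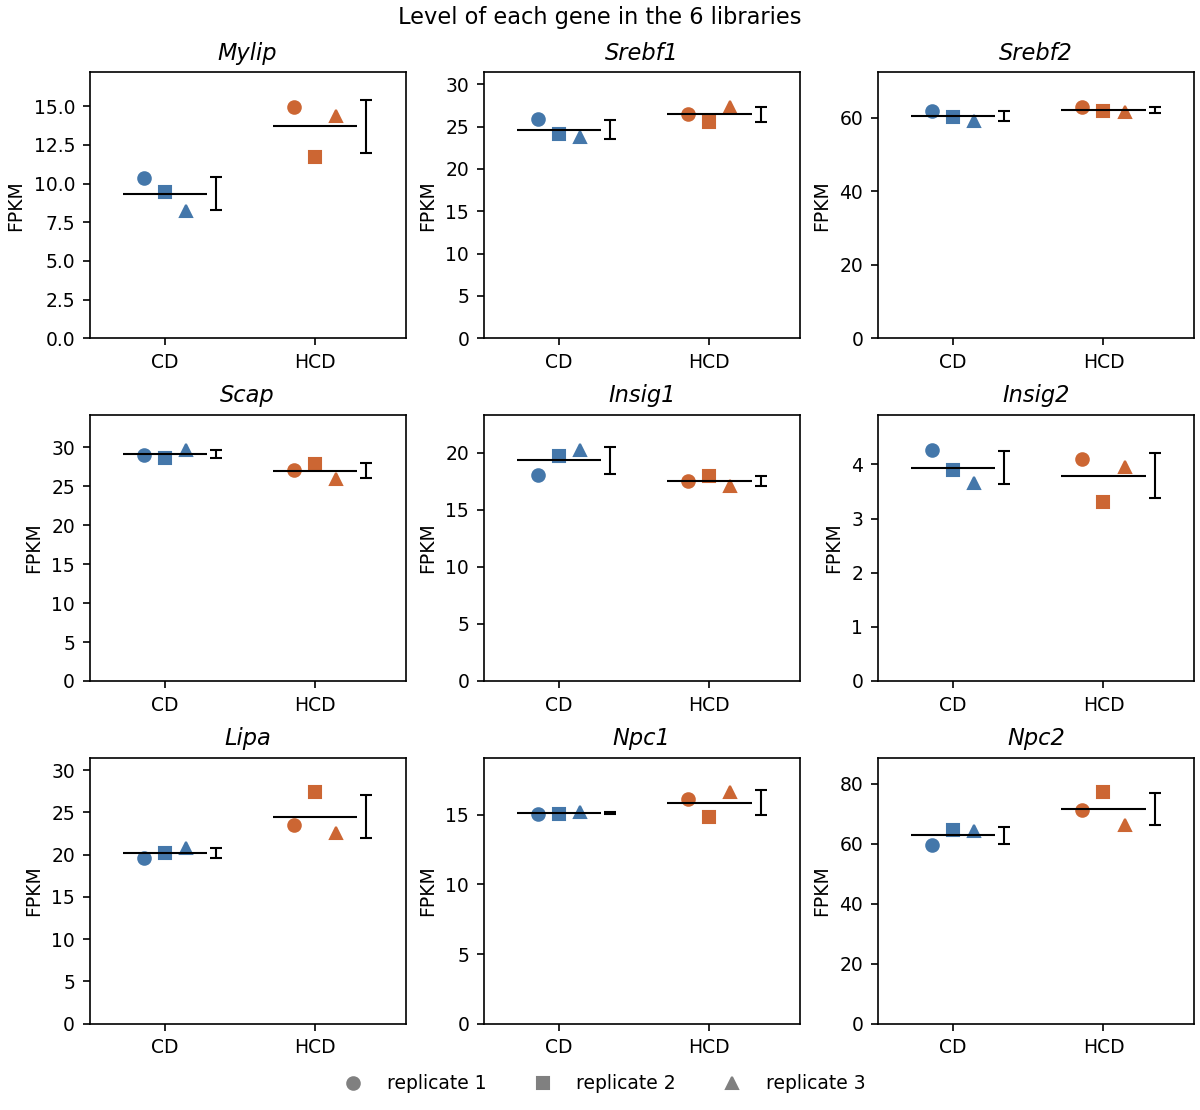
Level of each gene in FPKM (y axis, from 0) in the 3 CD and 3 HCD libraries. Marker shapes are replicate numbers, horizontal lines are group means and bars are SD (n = 3); Mylip, Lipa and Npc2 lie higher in all 3 HCD libraries than in any CD library, and Scap and Insig1 lower.

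Mylip (chromosome 13, 45389742 to 45412022, GRCm38, GENCODE vM21) encodes the ubiquitin ligase, also called IDOL, that marks the LDL receptor for degradation in the lysosome. Its level was 10.4, 9.48 and 8.23 FPKM in CD replicates 1, 2 and 3, and 14.9, 11.7 and 14.4 FPKM in HCD replicates 1, 2 and 3. Every HCD library was above every CD library, and the nearest values were those of HCD replicate 2 and CD replicate 1. The mean went from 9.36 ± 1.07 (SD, n = 3) to 13.7 ± 1.72 FPKM, a ratio of 1.46. The log2 change was 0.50 with a standard error of 0.11 (95% interval 0.26 to 0.75, limma adjusted p = 0.0187). In size this change was above 97.1% of those of all tested genes. Mylip was also the member whose values varied most within CD, with a coefficient of variation of 11.5% (12.6% in HCD). Counting alone would give about 4.59% at its lowest level, or more where shorter transcripts dominate.

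The call for Mylip did not hold in every set of libraries. It was lost without CD replicate 2 (adjusted p = 0.0649), CD replicate 3 (0.0765), HCD replicate 1 (0.0697) or HCD replicate 3 (0.0513). It was kept without CD replicate 1 (0.0457) and without HCD replicate 2 (0.00135), and over these sets the log2 change went from 0.42 to 0.60. Immediate early genes, a fast transcriptional response that handling of cells can also set off, were likewise lowest in HCD replicate 2 among the HCD libraries. The summed level of the 17 listed was 3088 to 3313 FPKM in CD, 7827 and 7924 in HCD replicates 1 and 3 and 6166 in HCD replicate 2, where Mylip was lowest too. Within CD the orders differed: the sum was lowest in CD replicate 2 (3088), and Mylip in CD replicate 3 (8.23 FPKM), where the sum was 3303. The part of the immediate early response in the Mylip result was not tested.

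The 3 tested genes outside the set whose profile over the 6 libraries was nearest to that of Mylip were Grina, Tcp11 and Ppp3cc. Their root mean square distances, on the log2(FPKM + 1) scale with each gene centred on its mean, were 0.04, 0.06 and 0.07. Grina rose from 16.8 to 23.5 FPKM (limma adjusted p = 0.0269), Tcp11 from 1.01 to 1.88 (adjusted p = 0.0187) and Ppp3cc from 4.2 to 6.07 (adjusted p = 0.0221). They were chosen for their likeness to Mylip, which had passed, so their rise and adjusted p follow from that choice and are no separate evidence.

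Of the members, 3 act in the lysosome. Lipa (chromosome 19, 34492318 to 34527474) encodes lysosomal acid lipase, which cuts cholesteryl esters. Npc2 (chromosome 12, 84754562 to 84773152) encodes the soluble protein that takes up the freed cholesterol. Npc1 (chromosome 18, 12189692 to 12236400) encodes the membrane protein to which NPC2 hands it on.

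Lipa was at 19.6, 20.3 and 20.8 FPKM in CD replicates 1, 2 and 3, and at 23.5, 27.4 and 22.6 FPKM in HCD replicates 1, 2 and 3. The groups did not overlap, and HCD replicate 2 was the highest. The means were 20.2 ± 0.59 and 24.5 ± 2.53 FPKM, a ratio of 1.21 (log2 change 0.26, standard error 0.07, 95% interval 0.09 to 0.43, limma adjusted p = 0.0504). The adjusted p was thus just above the threshold, and Lipa passed when the replicate number was put in as a block (adjusted p = 0.0343). Without HCD replicate 2 the log2 change was 0.18 with a standard error of 0.05, both smaller, and the adjusted p was 0.0296. In that fit more genes were called over the whole table, 2672 against 1488. In HCD the coefficient of variation was 10.3%, against 2.93% in CD.

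Npc2, whose mean was the highest of the 9, was at 59.5, 64.6 and 64.1 FPKM in CD replicates 1, 2 and 3, and at 71.2, 77.1 and 66.3 FPKM in HCD replicates 1, 2 and 3. Again the groups did not overlap and HCD replicate 2 was the highest. The means were 62.7 ± 2.79 and 71.5 ± 5.43 FPKM, a ratio of 1.14 (log2 change 0.18, standard error 0.06, 95% interval 0.04 to 0.33, limma adjusted p = 0.0852). Npc2 passed without HCD replicate 3 (adjusted p = 0.0469).

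Npc1 was at 15.1, 15.1 and 15.2 FPKM in CD replicates 1, 2 and 3, and at 16.1, 14.9 and 16.6 FPKM in HCD replicates 1, 2 and 3. The groups overlapped because HCD replicate 2 was below all 3 CD libraries, while the other HCD libraries were above them. The log2 change was 0.07 with a 95% interval of -0.07 to 0.20 (limma adjusted p = 0.49). HCD replicate 2 therefore had the highest Lipa and Npc2 and the lowest Npc1 of its group. The ratio of Npc2 to Npc1 was 5.18 there, against 4.41 and 3.99 in HCD replicates 1 and 3 and 3.95 to 4.28 in CD.

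Lipa and Npc2 are highly expressed in macrophages, so the markers of such cells are given beside them. The summed level of the 15 listed monocyte and macrophage markers was 178 to 189 FPKM in CD and 192 to 234 in HCD, with HCD replicate 2 the highest. Among them Csf1r was at 6.37 ± 0.24 and 8.61 ± 0.67 FPKM and Cd68 at 13.9 ± 0.44 and 16.6 ± 1.07, while C1qa and C1qb were above 1 FPKM only in CD, at 1.85 ± 0.21 and 2.30 ± 0.33 beside 0.55 ± 0.22 and 0.82 ± 0.14 in HCD. Lyz2, at 146 ± 4.13 and 171 ± 19.1 FPKM, made up most of the sum. Adgre1, Mrc1, Fcgr1 and Mertk, defining macrophage genes, averaged 0.43, 0.38, 0.15 and 0.10 FPKM, and none of the 15 was at 0 in all libraries. Markers of neutrophils and their progenitors, led by Mpo, summed to 882 to 910 FPKM in CD and 1649 to 1829 in HCD, again highest in HCD replicate 2. The part of these cells in the Lipa and Npc2 values was not tested, and in bulk samples a change in the share of a cell type and in RNA per cell cannot be told apart.

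The lists of other cells had lower sums. B cell sums overlapped between the diets, erythroid sums fell, and the remaining lists rose as well. B cell markers, led by Cd79b, summed to 27.8 to 37.2 FPKM in CD and 29.1 to 31.5 in HCD, and erythroid markers, led by Car1, to 24.1 to 26.9 and 20.6 to 22.4. T and NK cell markers went from 105 to 110 FPKM in CD to 129 to 151 in HCD, again highest in HCD replicate 2. Nearly all of this sum was Nkg7, while Cd3e was at 0 in all 6 libraries. Endothelial and stromal markers, led by Pecam1, went from 52.3 to 55.9 FPKM to 69.9 to 72.3, with Cdh5 averaging 0.045.

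**Figure D2:**
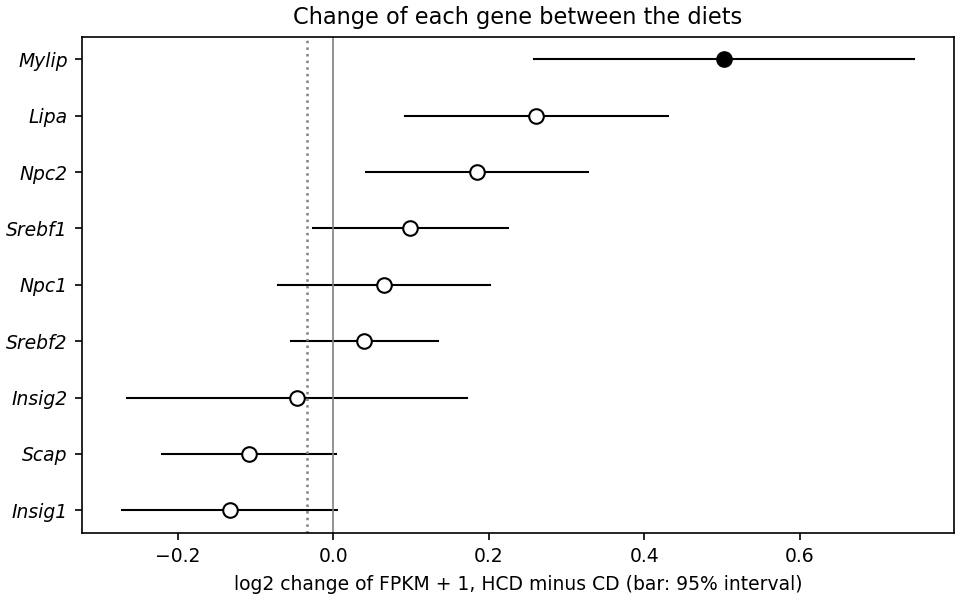
Log2 change of FPKM + 1, HCD minus CD (x axis), for the 9 genes, with 95% intervals from limma; the filled point passed an adjusted p of 0.05, the solid line is 0 and the dotted line is the median of all tested genes (-0.03). The interval of Mylip, Lipa and Npc2 lies above 0, and those of the other 6 genes hold 0.

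Among the sensors, Scap (chromosome 9, 110333288 to 110384950) encodes the sterol-sensing escort of the SREBPs. It was at 29.0, 28.7 and 29.7 FPKM in CD replicates 1, 2 and 3, and at 27.0, 27.9 and 26.0 FPKM in HCD replicates 1, 2 and 3. All HCD values were below all CD values, by a small margin. The means were 29.1 ± 0.52 and 26.9 ± 0.95 FPKM, a ratio of 0.925 (log2 change -0.11, standard error 0.05, 95% interval -0.22 to 0.00, limma adjusted p = 0.172).

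Insig1 (chromosome 5, 28071363 to 28078662) encodes the retention protein that is itself a strong SREBP target. It was at 18.002, 19.7 and 20.3 FPKM in CD replicates 1, 2 and 3, and at 17.5, 17.97 and 17.1 FPKM in HCD replicates 1, 2 and 3. The groups touched without overlapping: CD replicate 1 and HCD replicate 2 were nearly level. The means were 19.3 ± 1.18 and 17.5 ± 0.44 FPKM, a ratio of 0.906 (log2 change -0.13, standard error 0.06, 95% interval -0.27 to 0.01, limma adjusted p = 0.174). A fall of Insig1 larger than 0.27 on the log2 scale is outside that interval.

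Insig2 (chromosome 1, 121304353 to 121332589) encodes the second retention protein, which is not known as an SREBP target. Its level was the lowest of the 9, at 4.27, 3.90 and 3.65 FPKM in CD replicates 1, 2 and 3, and at 4.10, 3.31 and 3.96 FPKM in HCD replicates 1, 2 and 3. The groups overlapped. The log2 change was -0.05 with a 95% interval of -0.27 to 0.17 (limma adjusted p = 0.771), and it took the other sign without CD replicate 1 or HCD replicate 2. The ratio of Insig1 to Insig2 was 4.94 ± 0.67 in CD and 4.67 ± 0.65 in HCD.

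Both transcription factor genes were expressed. Srebf1 (chromosome 11, 60199089 to 60222581) encodes SREBP1, which favours genes of fatty acid synthesis, and is a target of LXR. It was at 25.9, 24.1 and 23.8 FPKM in CD replicates 1, 2 and 3, and at 26.5, 25.5 and 27.3 FPKM in HCD replicates 1, 2 and 3. Only CD replicate 1 reached into the HCD range. The log2 change was 0.10 with a 95% interval of -0.03 to 0.22 (limma adjusted p = 0.257). Gene values do not tell its SREBP1a and SREBP1c transcripts apart, which start at different promoters.

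Srebf2 (chromosome 15, 82147181 to 82205379) encodes SREBP2, which favours genes of sterol synthesis and LDL uptake. Its level was 61.9, 60.3 and 59.1 FPKM in CD replicates 1, 2 and 3, and 63.0, 61.9 and 61.6 FPKM in HCD replicates 1, 2 and 3. The groups overlapped, and CD replicate 1 was level with HCD replicates 2 and 3. The log2 change was 0.04 with a 95% interval of -0.05 to 0.13 (limma adjusted p = 0.553). The activity of the SREBPs is set by cleavage of the protein, which transcript levels do not measure.

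**Figure D3:**
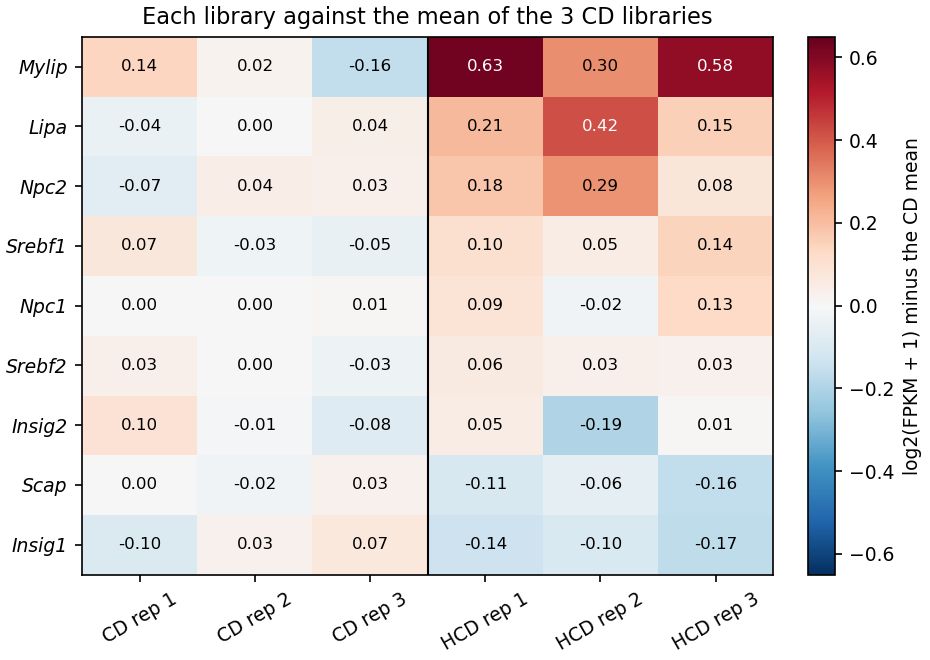
Difference of each library from the mean of the 3 CD libraries in log2(FPKM + 1), with genes as rows and libraries as columns; red is higher, blue lower and the printed numbers are the differences. In HCD replicate 2 Lipa (0.42) and Npc2 (0.29) are at their highest and Mylip (0.30) is at its lowest within HCD.

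By mean level over the 6 libraries the order was Npc2 (67.1 ± 6.17 FPKM, SD over 6 libraries), Srebf2 (61.3 ± 1.37), Scap (28.0 ± 1.38), Srebf1 (25.5 ± 1.35), Lipa (22.4 ± 2.86), Insig1 (18.4 ± 1.27), Npc1 (15.5 ± 0.71), Mylip (11.5 ± 2.70) and Insig2 (3.87 ± 0.34). Neighbours whose 6 values did not overlap were Srebf2 and Scap, Insig1 and Npc1, and Mylip and Insig2, and all other neighbours in the order overlapped. Npc2 stood above 90.8% and Insig2 above 18.1% of tested genes. Srebf2 was 2.46 ± 0.06 times Srebf1 in CD and 2.35 ± 0.09 times in HCD. For the ratio of Srebf2 to Scap the groups did not overlap, at 2.08 ± 0.07 in CD and 2.31 ± 0.08 in HCD (two-sided exact permutation test, p = 0.1, the smallest that 3 against 3 allows, and 0.4 adjusted over the 6 ratios between members that were compared).

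The other genes of the pathway were taken from 6 lists. Their counts stand beside 6.28% of all tested genes called higher and 7.66% lower (12.6% and 18.3% at an unadjusted p under 0.05). Of 15 tested genes for SREBP processing and INSIG turnover, such as the site proteases Mbtps1 and Mbtps2, limma called 0 higher and 0 lower (1 and 2 at an unadjusted p under 0.05). Their median log2 change was 0.00. The genes with the smallest p were Ufd1l (21.2 ± 1.66 and 24.6 ± 0.73 FPKM, adjusted p = 0.071), the ligase gene Rnf145 (10.1 ± 0.21 and 8.30 ± 1.19, adjusted p = 0.1), Tmem97, whose product binds NPC1 (29.9 ± 3.83 and 24.9 ± 2.75, adjusted p = 0.136), and the ligase gene Rnf139 (9.58 ± 0.93 and 10.5 ± 0.26, adjusted p = 0.296). With the replicate block Ufd1l passed (adjusted p = 0.0419). Without HCD replicate 2, Ufd1l (adjusted p = 0.0311, higher) and Tmem97 (0.0222, lower) passed.

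Downstream, the list of sterol synthesis genes that SREBP2 drives held enzymes and the sterol transport gene Stard4. Of its 22 tested genes 7 fell and 0 rose (12 and 0 at an unadjusted p under 0.05). The median log2 change was -0.20, against -0.03 for all genes. Idi1, the isomerase of the mevalonate pathway, fell from 8.38, 8.14 and 7.75 FPKM in CD replicates 1, 2 and 3 to 4.57, 5.46 and 4.11 in HCD replicates 1, 2 and 3 (log2 change -0.68, limma adjusted p = 0.0042). Cyp51 (lanosterol demethylase) and Sqle (squalene epoxidase) fell by 0.60 and 0.56 on the log2 scale (adjusted p = 0.000921 and 0.00189). Idi1, Cyp51 and Sqle passed in every alternative tried, including each left-out library. The other 15 did not pass. Without HCD replicate 2 the count was 11, and without CD replicate 1 or CD replicate 2 it was 4. A CCAAT box was found in 15 of the 16 enzymes with a promoter in the table (93.8%), against 41.1% of all genes there. In the other pathway lists the shares were 40% to 66.7%. The GC box GGGCGG was also found in 15 of the 16 enzymes, against 38.2% of all genes. For this box the shares in the other pathway lists were 50% to 75%, all above that of all genes. The letters TCACCCCA were found in 1 enzyme, Hmgcs1, and in 1.77% of all genes.

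For fatty acid synthesis, which SREBP1 drives, 3 of 11 tested genes fell and 1 rose (4 and 3 at an unadjusted p under 0.05). The median log2 change was -0.08. Fasn (fatty acid synthase) fell from 34.3 ± 0.01 to 24.2 ± 1.32 FPKM (limma adjusted p = 0.00132), Acaca (acetyl-CoA carboxylase) from 11.2 ± 0.53 to 7.96 ± 0.62 (adjusted p = 0.00815) and the elongase gene Elovl6 from 14.2 ± 0.25 to 11.5 ± 0.52 (adjusted p = 0.019). Acss2, which makes acetyl-CoA from acetate, rose from 11.4 ± 0.41 to 14.4 ± 0.79 (adjusted p = 0.018). With the trend against transcript length removed, Acaca (adjusted p = 0.067) and Elovl6 (0.0827) did not pass. The list's count was then 2. Elovl6 and Acss2 were also lost without any CD replicate or without HCD replicate 1 (adjusted p = 0.0649 to 0.0841 and 0.0516 to 0.081).

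**Figure D4:**
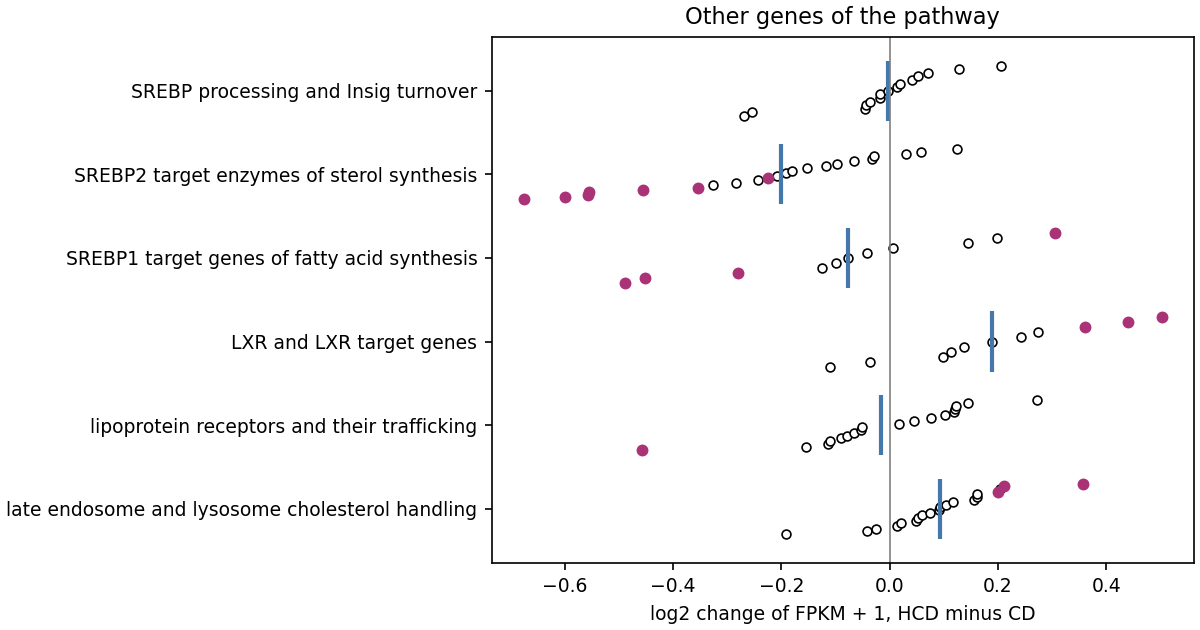
Log2 change of FPKM + 1, HCD minus CD (x axis), of each tested gene in the 6 pathway lists; filled points passed a limma adjusted p of 0.05 and vertical bars are list medians. The sterol synthesis list lies mostly below 0 (median -0.20) and the LXR list mostly above it (median 0.19).

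Mylip and Srebf1 belong to the list of LXR and its targets, of which 3 of 11 tested rose and 0 fell (6 and 0 at an unadjusted p under 0.05), with a median log2 change of 0.19. They were Mylip itself, Apoe (apolipoprotein E, 106 ± 4.08 and 137 ± 16.9 FPKM, limma adjusted p = 0.0238) and the small GTPase gene Arl4c (14.6 ± 1.55 and 20.3 ± 3.37, adjusted p = 0.0453). Smpdl3a was at 34.2 ± 2.94 and 40.6 ± 3.71 FPKM (adjusted p = 0.0809, and 0.0161 with the replicate block). Among the HCD libraries replicate 2 had the lowest Arl4c, 16.5 FPKM beside 21.7 and 22.8, like Mylip. It had the highest Apoe, 155 FPKM beside 136 and 121, like Lipa and Npc2. The receptor gene Nr1h3 (LXR alpha) averaged 0.55 FPKM and was not tested, and Nr1h2 (LXR beta) was at 45.6 ± 2.97 and 50.7 ± 8.60 FPKM (adjusted p = 0.447). None of the list passed without CD replicate 2, CD replicate 3 or HCD replicate 1, 1 passed without CD replicate 1 or HCD replicate 3, and 6 without HCD replicate 2.

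Of the 18 tested genes for other lipoprotein receptors and their trafficking, 1 fell and 0 rose (2 and 3 at an unadjusted p under 0.05). Lrp8, a receptor of the LDL receptor family, fell from 5.88 ± 0.13 to 4.08 ± 0.96 FPKM (limma adjusted p = 0.05, just under the threshold). Its call was lost without any CD replicate or without HCD replicate 1 (adjusted p = 0.114 to 0.155) with median-of-ratios scaling (0.0536) and with the length trend removed (0.0556). Lrp1, another receptor of the family, was at 1.04 ± 0.13 and 1.47 ± 0.22 FPKM (adjusted p = 0.126). With the length trend removed it passed (0.0101), so that setting called 1 gene higher and 0 lower. Without HCD replicate 2, 5 genes of the list passed, 4 of them lower. The receptor chaperone gene Lrpap1 was at 25.8 ± 0.96 and 28.7 ± 1.70 FPKM (adjusted p = 0.134) and Ccdc22 of the receptor recycling complex at 26.7 ± 1.18 and 23.9 ± 1.58 (adjusted p = 0.135). The scavenger receptor genes Cd36 and Msr1 averaged 0.16 and 0.02 FPKM and were not tested.

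In the list for cholesterol handling in late endosomes and lysosomes, 3 of 20 tested genes rose and 0 fell (5 and 0 at an unadjusted p under 0.05), with a median log2 change of 0.09. That is 15% called, beside 13.9% of all tested genes in either direction (6.28% higher and 7.66% lower), so the share called is near the background. Osbpl1a, an oxysterol-binding protein of late endosomes, rose from 20.6 ± 0.57 to 23.8 ± 0.41 FPKM (limma adjusted p = 0.0331). Lamp2, a major protein of the lysosomal membrane, rose from 39.2 ± 1.58 to 45.6 ± 2.33 FPKM (adjusted p = 0.0357), and the protease gene Ctsl from 7.58 ± 0.997 to 9.96 ± 0.63 (adjusted p = 0.043). Nceh1, a cholesteryl ester hydrolase gene, was at 20.03 ± 0.64 and 22.4 ± 0.64 FPKM (adjusted p = 0.0829). As with Lipa and Npc2, Lamp2 was highest in HCD replicate 2 (48.2 FPKM). Without any CD replicate or HCD replicate 1 none of the list passed, 1 passed without HCD replicate 3, and 5 without HCD replicate 2.

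Over all genes the test called 670 higher and 818 lower under HCD. With median-of-ratios scaling the split was 789 and 601, and once the length trend was taken out it was 773 and 576. The total of 1488 became 435, 551 and 509 without CD replicates 1, 2 and 3, 688 without HCD replicate 1 and 2672 without HCD replicate 2. Longer transcripts were lower under HCD (Spearman rho -0.25 across 10354 genes, which are not independent replicates). Under these scalings the 9 members kept their directions, and the log2 changes of Lipa were 0.29 and 0.30.

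**Figure D5:**
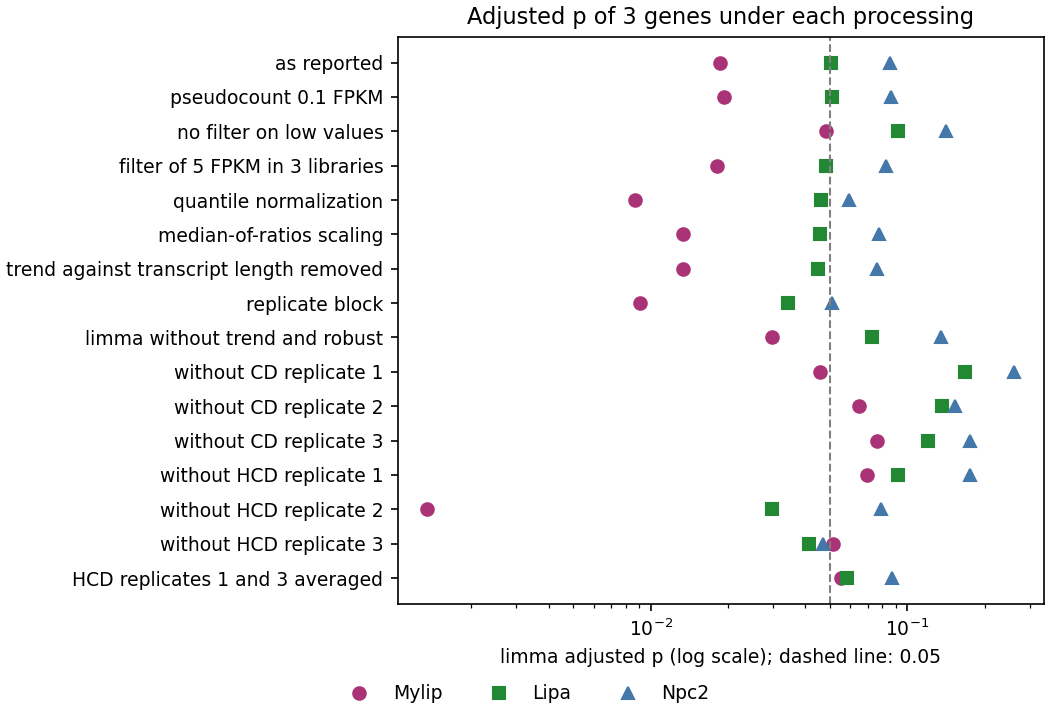
Limma adjusted p (x axis, log scale) of Mylip, Lipa and Npc2 as reported and under each other processing or left-out library (y axis); the dashed line is 0.05. Mylip lies between 0.00135 and 0.0765, Lipa between 0.0296 and 0.167.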

How the data were processed

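RNA sequencing covered 6 libraries, 3 per diet, grouped by their titles. Per the labels' protocols, a micro-scale kit was used for RNA and a stranded kit for the mRNA libraries. GRCm38 and mm10 are the builds, and fastp, HISAT2 and StringTie the tools, in the submitters' processing notes, without versions or settings. The deposited values are read here as FPKM from their distribution and low values, because no header states the unit, and RPKM would look alike. Of 21878 rows, 27 carried a date for a symbol and were left out. Low values were whole multiples of a lone read, within 0.02, in 32.9% of 989 low genes (0% with a single random draw of wrong depths). The relative depths were set from these same low genes, so the whole multiples are no independent check of them. The absolute depth came from 50 low genes with a single annotated transcript.

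The test was limma 3.58.1 (R 4.3.3), with its trend and robust options, on log2(FPKM + 1), which understates the change of low genes, two-sided and unpaired, for genes of at least 1 FPKM in 3 libraries. On simulated data with normal noise it was checked for the direction of calls and for the recovery of changes larger than any member's. The recovery of changes of the members' size is not reported here. The members, lists, tests and alternatives were chosen with earlier results of these data known. Named are all members, up to 4 genes of smallest p per pathway list, the highest marker of each cell list and the sort genes, and other names were chosen after their values were seen. Some genes that this rule names are not reported here. Deviations from group means of same-numbered libraries correlated at 0.103, 0.292 and 0.166 for numbers 1, 2 and 3. All were above 0.1, so the numbers were treated as possible pairs in an alternative fit, though no label states a pairing. Crossing numbers 1 and 3 came close to that cut, at 0.0983 (CD 1, HCD 3) and 0.0941 (CD 3, HCD 1). Every crossing that involved number 2 was negative, from -0.250 to -0.133. Deviations within a diet cancel out for each gene, so these negative values partly follow from 0.292 and are no separate support. Whether any libraries pair by number cannot be told from these correlations, and 0.103 is close to the crossed values of 1 and 3. Alternatives covered pseudocount, filter, scaling, transcript length, empirical Bayes, the block and left-out libraries. Positions are from GENCODE vM21.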

Additional observations from a re-analysis of the deposited data

How the results depend on the processing

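The alternatives tried were a pseudocount of 0.1 FPKM, no filter, a filter of 5 FPKM, quantile and median-of-ratios scaling, removal of the trend against transcript length, the replicate block, limma without trend and robust, each library left out in turn, and, chosen after seeing the data, HCD replicates 1 and 3 averaged into 1 sample. Over 15 alternatives Mylip kept its direction in 15 and passed in 10. Lipa kept it in 15 and passed in 7, Npc2 in 15 and 1, and Srebf1, Srebf2, Scap, Insig1 and Npc1 kept it in all 15 and passed in 0. Insig2 kept its direction in 12 of 14 and turned without CD replicate 1 (log2 change 0.00073) and HCD replicate 2 (0.026), in a range of -0.094 to 0.026 with a library left out. The count of members called was 1, and 2 with the filter of 5 FPKM, either scaling, the length trend removed or the replicate block, 0 with HCD replicates 1 and 3 averaged, and 0 to 2 with a library left out. With these averaged, Mylip had an adjusted p of 0.055. Genes called over the whole table numbered 1488, 1873 with the replicate block, 927 with the averaged pair, and 435 to 2672 with a library left out, the highest without HCD replicate 2. In the SREBP processing list the count was 0, and 1 with either scaling or the block (0 to 2 with a library left out). For the sterol synthesis list it was 7, 10 with the block and 4 to 11 with a library left out. For fatty acid synthesis it was 4, 2 with the length trend removed and 2 to 5 with a library left out. For the LXR list it was 3, 1 without a filter, 1 with the averaged pair, and 0 to 6 with a library left out. The lipoprotein receptor list went from 1 to 0 with the smaller pseudocount, either other filter, median-of-ratios scaling, or limma without trend and robust, kept 1 with the length trend removed but by another gene, and went to 0 to 5 with a library left out. The lysosomal list went from 3 to 1 without a filter or without trend and robust, to 0 with the averaged pair, and to 0 to 5 with a library left out. The fits with a library left out have fewer samples, and the causes of the losses, and of the gain without HCD replicate 2, were not tested. The replicate block ended no call of a member. At about 180 reads, counting alone gives Insig2 an error of about 7.5%, or more where shorter transcripts dominate.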
